A study of Mus musculus with 9 samples.

Results

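Type I interferons signal through a cell-surface receptor and the kinases JAK1 and TYK2 to ISGF3, a transcription factor that contains STAT2 and IRF9. ISGF3 binds the interferon-stimulated response element (ISRE) in the promoters of antiviral genes, the interferon-stimulated genes, and IRF7 then amplifies interferon production. In skeletal muscle these genes are best known from viral infection and from inflammatory muscle disease. The genes described here are 9 members of this pathway, chosen by name: the ISGF3 subunits Stat2 and Irf9, the amplifier Irf7, and the interferon-stimulated genes Ifit1, Ifit3, Isg15, Oasl2, Bst2 and Rtp4. All 9 were present among the 13179 genes measured, and all 9 passed the filter on low values that left 13137 genes for testing.

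Polyadenylated RNA of the gastrocnemius, a mostly fast-twitch muscle of the calf, was measured in 9 libraries, 3 in each of 3 groups. The groups were p38αMCK-KO mice, which lack the stress kinase p38α in muscle (p38α KO), p38α/γMCK-KO mice, which lack p38α together with p38γ (p38α/γ KO), and control mice, and all were fed a high-fat diet for 6 weeks. MCK abbreviates muscle creatine kinase, whose promoter is commonly used to drive Cre recombinase in striated muscle; it is active in fibres rather than in the blood and vessel cells of the tissue. The labels do not say whether the control mice carried Cre or floxed alleles, nor whether the numbered samples of a group came from separate animals. The p-values therefore speak for the variation among these libraries, which may be technical.

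The libraries held between 23820968 and 27944409 reads, inferred from the spacing of the deposited values. Mapk14, which encodes p38α, had 43.8, 45.5 and 40.3 normalised counts in p38α KO muscle and 54.7, 37.0 and 42.7 in p38α/γ KO muscle, against 142.7, 149.3 and 156.7 in control muscle. Mapk12, which encodes p38γ, had 31.2, 35.5 and 32.8 in p38α/γ KO muscle, against 139.9, 137.9 and 152.2 in control muscle. In p38α KO muscle Mapk12 was also lower, at 96.5, 102.9 and 105.1 (limma adjusted p = 0.00601). Library p38α KO 1 stood apart from its group, with correlations across genes of 0.9755 with p38α KO 2 and 0.9605 with p38α KO 3. Its correlations with p38α/γ KO 1, 2 and 3 were higher, at 0.9783, 0.9833 and 0.9804. The main counts below are also given without this library. Markers of fast fibres were present in every library.

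The promoters are shown because ISGF3 acts through them. RefSeq windows from 250 bases before to 50 bases after the start site (build GRCm38.p6) were found for 8 of the 9 genes; Rtp4 is named only. Both strands were searched for the core of the ISRE, GAAA and GAAA with any 2 bases between them, and for that of the gamma-activated site (GAS), TTC and GAA with any 3 bases between them. The ISRE core was found in the windows of 5 of the 8 genes, and in 3.44% of all 32851 windows. Capitals below mark its matches in the direction of the gene, so a match on the opposite strand reads TTTC.
Ifit3, chr19:34583358-34583431, plus strand: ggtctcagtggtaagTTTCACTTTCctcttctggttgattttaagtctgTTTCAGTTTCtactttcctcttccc
Ifit1, chr19:34640770-34640828, plus strand: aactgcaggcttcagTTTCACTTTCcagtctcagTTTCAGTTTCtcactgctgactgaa
Isg15, chr4:156200860-156200911, minus strand: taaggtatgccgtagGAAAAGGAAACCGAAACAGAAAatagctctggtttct
Bst2, chr8:71537572-71537617, minus strand: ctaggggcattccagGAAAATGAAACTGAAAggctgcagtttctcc
Stat2, chr10:128270261-128270300, plus strand: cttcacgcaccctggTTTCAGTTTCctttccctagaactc

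Ifit3, Ifit1, Isg15 and Bst2 held at least 2 matches, as did 0.225% of all windows. The 3 matches of Isg15 overlap one another and cover bases 78 to 57 before the start site. Those of Bst2 also overlap, from 130 to 115 bases before it, and share bases with a match to the GAS core, which 8.3% of all windows held. In Ifit3 the matches begin 156 and 122 bases before the start site, and in Ifit1 104 and 85 bases before it. Stat2 held 1 match, beginning 222 bases before its start site. The windows of Irf7, Irf9 and Oasl2 held neither set of letters, which says nothing about sites elsewhere.

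**Figure D1:**
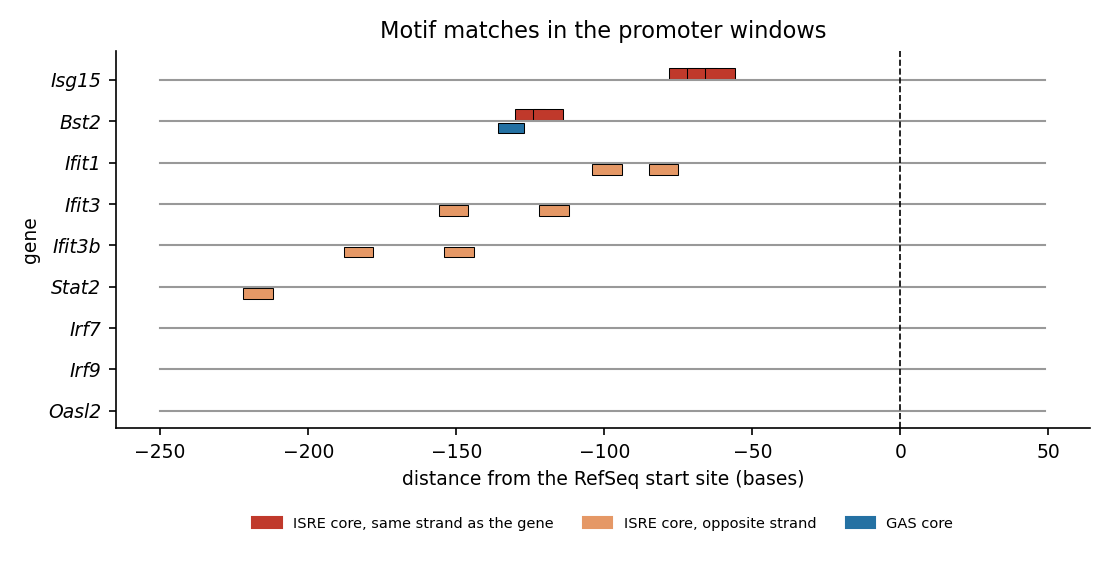
Matches to the ISRE core and the GAS core (coloured bars) in the promoter windows, by distance in bases from the RefSeq start site (dashed line), for the 8 genes with a window and for Ifit3b. Matches lie before the start site in Ifit1, Ifit3, Isg15, Stat2, Bst2 and Ifit3b, and the lines of Irf7, Irf9 and Oasl2 are empty.

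In p38α KO muscle 4 of the 9 genes were higher than in control muscle at an adjusted p below 0.05, and none was lower. They were Ifit3, Irf9, Irf7 and Bst2. Of all genes tested, 7.32% were higher in this comparison by the same rule, and 17.8% changed in either direction. In p38α/γ KO muscle 2 of the 9, Ifit3 and Irf9, were higher, beside 11.2% of all genes that were higher and 25.6% that changed in either direction. At an unadjusted p below 0.05, 7 of the 9 were higher in p38α KO muscle, beside 15.9% of all genes, and 4 in p38α/γ KO muscle, beside 20.1% of all genes, and none was lower. All 9 differences from control were above 0 in both comparisons, with medians of 0.529 and 0.355 in log2(normalised count + 1), where the medians of all genes were 0.0084 and 0.015. The share of all genes above 0 was 51.0% in the p38α KO comparison and 51.5% in the p38α/γ KO comparison. The comparisons share their control libraries.

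Tests were made with limma on all 9 libraries, and fold changes are of the normalised count + 1, which understates the change of low values. Without p38α KO 1, 3 of the 9 genes were higher in p38α KO muscle, beside 7.16% of all genes in that fit, and 4 in p38α/γ KO muscle, beside 19.4% of all genes. The p38α KO count was 6 in the fit that left out p38α KO 3 and 2 in that without control 2, and it was 1 when p38α KO 2, control 1 or control 3 was left out. The p38α/γ KO count was 0 without control 3 and without p38α/γ KO 2 or 3, and 1 without p38α KO 2, control 1 or control 2. It was 1 with the sample number as a block, fitted to all 9 libraries, and 3 without p38α KO 3 or p38α/γ KO 1. Whether the sample numbers pair the libraries is not known. Over the fits with 1 library left out, the share of all genes that were higher lay between 2.18% and 11.4% for p38α KO muscle and between 2.58% and 19.4% for p38α/γ KO muscle, and it was 7.83% for p38α/γ KO muscle with the block.

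**Figure D2:**
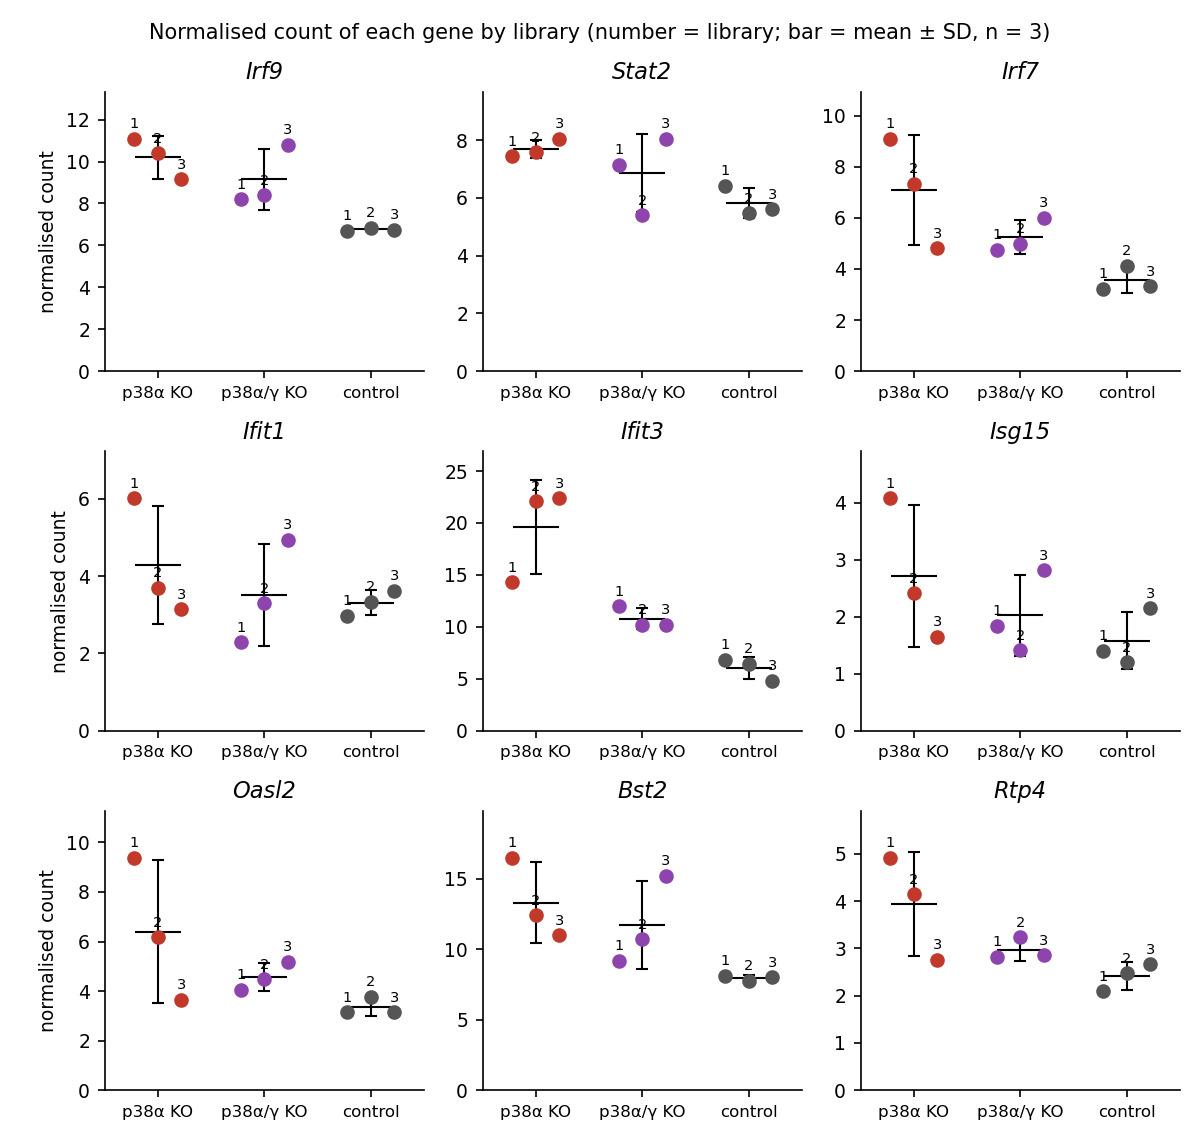
Normalised count of each of the 9 genes (vertical axes, each starting at 0) in the 3 libraries of each group, numbered, with bars for the mean ± SD. Ifit3 reached 14.3 to 22.4 in p38α KO muscle, above every p38α/γ KO and control library, while Ifit1 overlapped across all groups.

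Irf9, the DNA-binding subunit of ISGF3 (chr14:55603571-55610030, plus strand; gene coordinates are GENCODE M21, GRCm38), had 11.1, 10.4 and 9.16 normalised counts in p38α KO muscle, 8.21, 8.4 and 10.8 in p38α/γ KO muscle and 6.7, 6.85 and 6.74 in control muscle. Every library of both knockouts lay above every control library, and the controls lay within 0.0777 (SD) of their mean of 6.77. Irf9 was 1.44-fold higher in p38α KO muscle than in control (log2 difference 0.53, SE 0.122, adjusted p = 0.019) and 1.3-fold higher in p38α/γ KO muscle (0.38, SE 0.122, adjusted p = 0.0477). Leaving out p38α KO 2 or any 1 control library ended the p38α KO call (adjusted p 0.055 to 0.0678). The p38α/γ KO call ended without p38α KO 2, without any 1 control library and without p38α/γ KO 2 or 3 (adjusted p up to 0.166) and with the sample number as a block (0.0883). Exons of Irf9 overlap those of Rnf31 on the same strand, which differed from control by 0.19 (adjusted p = 0.167) in p38α KO muscle and by 0.21 (adjusted p = 0.108) in p38α/γ KO muscle, on the log2 scale.

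Stat2, the subunit that carries the activation domain (chr10:128270559-128292849, plus strand), had 7.45, 7.58 and 8.06 in p38α KO muscle, 7.16, 5.4 and 8.05 in p38α/γ KO muscle and 6.42, 5.47 and 5.61 in control muscle. The p38α KO libraries did not overlap with control, whereas the p38α/γ KO libraries did. Neither difference passed the test, at 0.35 (SE 0.137, adjusted p = 0.103) for the p38α KO and 0.19 (SE 0.137, adjusted p = 0.312) for the p38α/γ KO.

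Irf7, the factor that amplifies interferon transcription (chr7:141262706-141266481, minus strand), had 9.1, 7.34 and 4.82 in p38α KO muscle, 4.75, 4.98 and 6.0 in p38α/γ KO muscle and 3.22, 4.13 and 3.32 in control muscle. No control library reached either knockout, and the p38α KO libraries spread most, with an SD of 2.15. Irf7 rose 1.74-fold in p38α KO muscle (log2 difference 0.80, SE 0.192, adjusted p = 0.022). The difference in p38α/γ KO muscle, 0.45 (SE 0.192, adjusted p = 0.105), did not pass. It passed without p38α KO 1 (adjusted p = 0.0409) or p38α KO 3 (0.0324). The rise in p38α KO muscle was lost without p38α KO 2 (adjusted p = 0.0637), control 1 (0.0775) or control 3 (0.0797). Phrf1, which overlaps Irf7 on the opposite strand, differed from control by -0.03 (adjusted p = 0.878) and -0.22 (adjusted p = 0.119) in the p38α KO and p38α/γ KO; the labels name a stranded kit but not the strand used in counting.

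Ifit3, whose product binds IFIT1 and is part of the antiviral IFIT complex in human cells (chr19:34583531-34588731, plus strand), changed most of the 9 genes. It had 14.3, 22.1 and 22.4 normalised counts in p38α KO muscle, 12.0, 10.2 and 10.2 in p38α/γ KO muscle and 6.83, 6.46 and 4.83 in control muscle, so that no library of any group overlapped with another group. Its means were 19.6 ± 4.56, 10.8 ± 1.03 and 6.04 ± 1.06 (SD, n = 3 each) in the same groups. Ifit3 was 2.9-fold higher in p38α KO muscle than in control (log2 difference 1.53, SE 0.179, adjusted p = 0.00135), a call kept whichever library was left out (adjusted p 0.000211 to 0.00894). It was 1.69-fold higher in p38α/γ KO muscle (0.75, SE 0.179, adjusted p = 0.0175), a difference that did not pass without control 3 (adjusted p = 0.0675), p38α/γ KO 2 (0.058) or p38α/γ KO 3 (0.0532).

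Ifit3 has a near-identical neighbour, Ifit3b, at chr19:34607970-34613401. The printed promoter stretch of Ifit3 is the same in Ifit3b over all 74 bases. Of the 51-base windows of the Ifit3 transcripts, 50.8% also occur in another gene, mostly Ifit3b, so reads of the length sequenced here cannot all be assigned and the split between both genes is uncertain. Ifit3b had 10.2, 17.9 and 24.2 in p38α KO muscle, 10.1, 10.1 and 10.1 in p38α/γ KO muscle and 6.58, 4.17 and 7.61 in control muscle. It rose in p38α KO muscle (log2 difference 1.33, adjusted p = 0.0125), and the difference in p38α/γ KO muscle, 0.68, did not pass (adjusted p = 0.0914), but did without p38α KO 1 (0.0145) or p38α KO 3.

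The sum of Ifit3 and Ifit3b does not depend on that split. It was 24.6, 40.0 and 46.6 in p38α KO muscle, 22.1, 20.4 and 20.4 in p38α/γ KO muscle and 13.4, 10.6 and 12.4 in control muscle. The groups again did not overlap. The summed level was higher in p38α KO muscle (1.49, adjusted p = 0.00232) and in p38α/γ KO muscle (0.74, adjusted p = 0.0255). Ifit2, which lies beside them on the same chromosome and is also induced by interferon, had 4.23, 4.35 and 4.29 in p38α KO muscle, 3.28, 3.82 and 3.3 in p38α/γ KO muscle and 4.68, 5.04 and 3.88 in control muscle. Its differences were below 0 in both knockouts and did not pass, at -0.06 (adjusted p = 0.754) in the p38α KO and -0.31 (adjusted p = 0.0819) in the p38α/γ KO.

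Ifit1, which recognises foreign RNA caps (chr19:34640871-34650009, plus strand), had 6.02, 3.7 and 3.15 in p38α KO muscle, 2.29, 3.3 and 4.94 in p38α/γ KO muscle and 2.98, 3.34 and 3.62 in control muscle. All groups overlapped, and the highest and the lowest library were both from knockouts. The differences from control were 0.26 (SE 0.239, adjusted p = 0.472) in p38α KO muscle and 0.03 (SE 0.239, adjusted p = 0.944) in p38α/γ KO muscle; the second turned negative under quantile normalisation (-0.0942), without p38α/γ KO 3 (-0.193) and without control 1 (-0.0311).

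Isg15, a ubiquitin-like modifier (chr4:156199424-156200818, minus strand), had 4.08, 2.41 and 1.65 in p38α KO muscle, 1.84, 1.41 and 2.81 in p38α/γ KO muscle and 1.4, 1.2 and 2.15 in control muscle. The groups overlapped, and neither difference passed, at 0.49 (SE 0.258, adjusted p = 0.209) and 0.22 (SE 0.258, adjusted p = 0.549). Isg15 had the fewest inferred reads of the 9 genes, from 30 to 111 a library. Oasl2, a relative of the antiviral oligoadenylate synthetases (chr5:114896936-114912234, plus strand), had 9.39, 6.17 and 3.65 in p38α KO muscle, 4.05, 4.49 and 5.18 in p38α/γ KO muscle and 3.14, 3.77 and 3.14 in control muscle. Its p38α/γ KO libraries all lay above control, and p38α KO 3 lay within the control range. The differences of Oasl2 were 0.69 (SE 0.244, adjusted p = 0.077) in the p38α KO and 0.35 (SE 0.244, adjusted p = 0.294) in the p38α/γ KO, and the first passed without p38α KO 3 (adjusted p = 0.0061).

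Bst2, which encodes tetherin, a membrane protein that holds budding viruses at the cell surface (chr8:71534255-71537456, minus strand), had 16.5, 12.4 and 11.0 in p38α KO muscle, 9.19, 10.7 and 15.2 in p38α/γ KO muscle and 8.12, 7.76 and 8.0 in control muscle. Both knockouts lay wholly above control, whose SD was 0.183. Bst2 rose 1.58-fold in p38α KO muscle (log2 difference 0.66, SE 0.183, adjusted p = 0.0361), and its difference in p38α/γ KO muscle was 0.48 (SE 0.183, adjusted p = 0.0807), which passed without p38α KO 1 (adjusted p = 0.0317) or p38α/γ KO 1 (0.0462). The rise in p38α KO muscle did not pass without p38α KO 1 (adjusted p = 0.0694), p38α KO 2 (0.069), p38α/γ KO 2 (0.0524) or any 1 control library (0.0925 to 0.101).

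Rtp4, which encodes a chaperone of membrane receptors (chr16:23520291-23614222, plus strand), had 4.92, 4.15 and 2.76 in p38α KO muscle, 2.82, 3.23 and 2.85 in p38α/γ KO muscle and 2.09, 2.47 and 2.67 in control muscle. Neither knockout overlapped with control, but p38α KO 3 at 2.76 and control 3 at 2.67 were close. The differences of 0.51 (SE 0.169, adjusted p = 0.0623) in the p38α KO and 0.22 (SE 0.169, adjusted p = 0.343) in the p38α/γ KO did not pass, and the first passed without p38α KO 3 (adjusted p = 0.00937). Of the Rtp4 transcripts' 51-base windows, 11.6% also occur in another gene, mostly the overlapping transcript Gm45338.

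**Figure D3:**
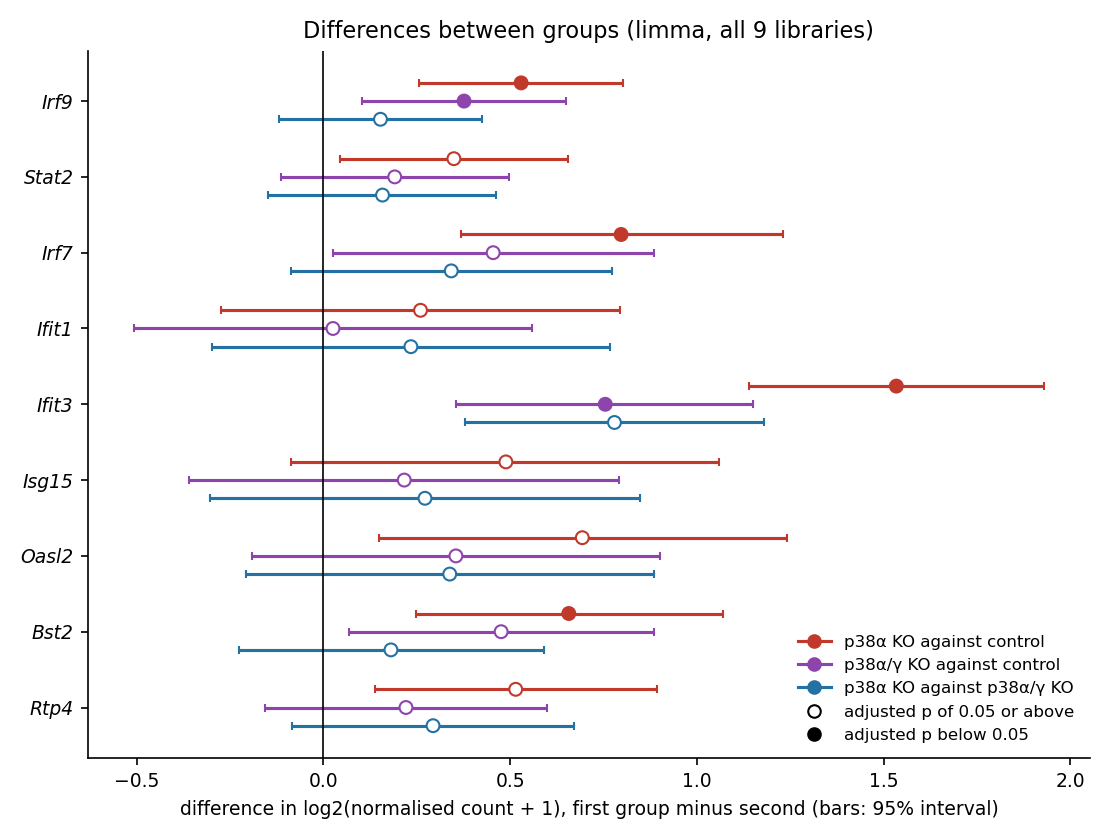
Difference in log2(normalised count + 1) for each gene (rows) in the 3 comparisons (colours), with 95% intervals and filled points where the adjusted p was below 0.05. All points lie above 0, and the intervals of Ifit3 lie above 0 in all 3 comparisons.

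All 3 p38α KO libraries lay above all 3 control libraries for 6 of the 9 genes, beside 17.6% of all genes that were higher without overlap. The same held for 6 of the 9 in p38α/γ KO muscle, beside 26.4% of all genes. An exact permutation test of 3 libraries against 3 cannot give a p below 0.1 and was at 0.1 (two-sided) for each of these.

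The direct comparison asks whether loss of p38γ on top of p38α went with another level of these genes. Between p38α KO and p38α/γ KO muscle all 9 differences were above 0, with a median of 0.272, where the median of all genes was -0.0061 and 48.7% of all genes were above 0. None of the 9 passed limma at an adjusted p below 0.05, beside 0.122% of all genes that were higher by this rule and 0.442% that changed in either direction, and 1 was higher at an unadjusted p below 0.05, beside 5.65% of all genes. That gene was Ifit3, whose level was 1.72-fold higher in p38α KO muscle than in p38α/γ KO muscle (log2 difference 0.78, SE 0.179, unadjusted p = 0.00148, adjusted p = 0.125). It was also the 1 gene of the 9 whose knockout groups did not overlap, beside 6.73% of all genes that were higher without overlap. Without p38α KO 1 the median of the 9 genes fell to 0.0949, and the difference of Ifit3 was 0.98 with an adjusted p of 0.00543. In that fit 7.71% of all genes were higher and 14.2% changed in either direction by the same rule. For the sum of Ifit3 and Ifit3b the difference with all libraries was 0.75 (adjusted p = 0.175). The differences of the other 8 genes lay between 0.15 for Irf9 and 0.34 for Irf7, and their intervals all included 0.

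The order of the libraries differed between genes. Within p38α KO muscle, library 1 was the highest and library 3 the lowest for 7 genes, namely Ifit1, Isg15, Irf7, Irf9, Bst2, Oasl2 and Rtp4. For Ifit3 and Stat2 the order was reversed, with library 1 the lowest and library 3 the highest. Within p38α/γ KO muscle, library 3 was the highest for 7 genes, the exceptions being Ifit3 and Rtp4. In control muscle no library was the highest for more than 3 genes.

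Levels between genes were compared per kilobase of exon, as normalised counts per kilobase in control muscle. The length was that of all annotated exons of a gene, merged. For Irf7 this was 3776 bases, its whole gene span, and for Irf9 5386 bases from 20 annotated exons. A length that holds bases missing from the RNA present understates the level, so the order of the genes is uncertain. Bst2 was the highest by this measure, at 8.82 ± 0.203, followed by Ifit3 at 3.46 ± 0.607 and Isg15 at 2.09 ± 0.658 (SD, n = 3). Irf9 (1.26 ± 0.0144), Ifit1 (1.25 ± 0.121), Rtp4 (1.13 ± 0.138), Stat2 (0.985 ± 0.0864) and Irf7 (0.941 ± 0.132) came next, and neighbours in that order overlapped within their SD. Oasl2 was the lowest, at 0.526 ± 0.0572. Bst2 was at 14.7 ± 3.17 and Ifit3 at 11.2 ± 2.61 in p38α KO muscle, and at 13.0 ± 3.47 and 6.2 ± 0.589 in p38α/γ KO muscle.

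None of the 11 interferon genes listed as ligands had a row in the table. Of 9 receptor and JAK-STAT genes, none changed in p38α KO muscle by limma (1 was higher and 2 lower at an unadjusted p below 0.05), while 1 rose and 2 fell in p38α/γ KO muscle. The 1 that rose was 11.1% of the list, beside 11.2% of all genes, and those called in either direction were 33.3%, beside 25.6%. Without p38α KO 1 none changed in p38α KO muscle either, and 2 rose and 2 fell in p38α/γ KO muscle. In that fit 19.4% of all genes were higher in p38α/γ KO muscle and 41.0% changed in either direction. Without p38α KO 3, Stat3 was higher (adjusted p = 0.00917) and Jak2 (0.00841) and Jak1 (0.0248) were lower in p38α KO muscle. With the sample number as a block, none was higher and 1, Jak1, was lower in p38α/γ KO muscle. Ifnar1, a chain of the type I receptor, had 10.7, 11.0 and 10.4 in p38α KO muscle, 11.4, 10.8 and 10.4 in p38α/γ KO muscle and 11.2, 11.0 and 9.34 in control muscle, so that the groups overlapped. Its differences from control were 0.03 (adjusted p = 0.858) in p38α KO muscle and 0.05 (adjusted p = 0.712) in p38α/γ KO muscle. The other receptor chains Ifnar2, Ifngr1 and Ifngr2 and the kinase Tyk2 did not pass either, with differences between -0.05 and 0.36 over both comparisons, though Ifnar2 passed in p38α/γ KO muscle without p38α KO 1 (adjusted p = 0.0187).

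The kinase Jak1 had 74.2, 107.7 and 118.1 in p38α KO muscle, 91.1, 70.0 and 79.9 in p38α/γ KO muscle and 132.7, 141.5 and 133.2 in control muscle, and no knockout library reached the controls. Jak1 fell in p38α/γ KO muscle (log2 difference -0.76, adjusted p = 0.0127, lost without p38α/γ KO 2 at 0.0595), and its p38α KO difference was -0.46 (adjusted p = 0.0749). Jak2, which serves the interferon gamma receptor, also fell in p38α/γ KO muscle (-0.78, adjusted p = 0.0334), a call lost without p38α/γ KO 2 or 3 or any 1 control library, and with the sample number as a block (adjusted p = 0.0521). Stat3, which responds mainly to cytokines of the interleukin 6 family, rose there (0.37, adjusted p = 0.0401), a call lost in 7 of the 9 fits with 1 library left out, all but those without p38α KO 1 or p38α KO 3, and with the block (adjusted p = 0.0672).

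Of 9 other genes of the IRF family and its partners, Irf1 and Irf2bp2 rose in both knockouts and none fell. These were 22.2% of the list in each knockout, beside 7.32% of all genes for p38α KO muscle and 11.2% for p38α/γ KO muscle. At an unadjusted p below 0.05, 5 of the 9 (55.6%) were higher in p38α KO muscle, beside 15.9% of all genes. In p38α/γ KO muscle 3 (33.3%) were higher by that rule, beside 20.1% of all genes. Irf1, a factor induced by interferon gamma, had 16.2, 14.4 and 20.0 in p38α KO muscle, 14.9, 15.5 and 18.9 in p38α/γ KO muscle and 9.26, 11.5 and 9.47 in control muscle, with no knockout library in the control range. Its differences were 0.68 (adjusted p = 0.0134) in the p38α KO, lost without control 1 or control 3, and 0.65 (adjusted p = 0.0138) in the p38α/γ KO, lost without p38α/γ KO 3 and without control 1 or 3. Irf2bp2, a partner of the repressor IRF2, rose by 0.52 (adjusted p = 0.0175) in the p38α KO, a call lost without control 1, 2 or 3, and by 0.59 (adjusted p = 0.00982) in the p38α/γ KO, a call kept whichever library was left out.

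Of 14 sensors of nucleic acids and their adaptors, 3 rose in p38α KO muscle (Trim25, Tlr7 and Dhx58), 4 rose in p38α/γ KO muscle (Trim25, Myd88, Ticam1 and Trex1) and none fell. These were 21.4% and 28.6% of the list, beside 7.32% and 11.2% of all genes that were higher. Trim25, the ubiquitin ligase that activates the RNA sensor RIG-I, had 20.8, 25.1 and 25.7 in p38α KO muscle, 18.6, 21.1 and 19.1 in p38α/γ KO muscle and 13.8, 13.9 and 15.3 in control muscle. Its p38α KO difference of 0.69 (adjusted p = 0.00393) was called whichever library was left out, and its p38α/γ KO difference of 0.42 (adjusted p = 0.0202) was lost without p38α/γ KO 2 or 3 and without control 1 or 2. In p38α KO muscle 1 of the 14 was called without p38α KO 2, p38α/γ KO 1 or any 1 control library, 5 without p38α KO 3 and 2 without p38α KO 1. Of all genes 2.18% to 5.99% were higher where 1 was called, 11.4% without p38α KO 3 and 7.16% without p38α KO 1. For the p38α/γ KO the count was 5 without p38α KO 1, 1 without p38α KO 2 or control 3, and 0 without p38α/γ KO 2 or 3 and without control 1 or 2. Of all genes 19.4% were higher without p38α KO 1, 8.97% without p38α KO 2, 3.58% without control 3 and 2.58% to 5.45% where the count was 0. With all libraries 6 of the 14, or 42.9%, were higher at an unadjusted p below 0.05 in each knockout, beside 15.9% of all genes for p38α KO muscle and 20.1% for p38α/γ KO muscle. With the sample number as a block Ticam1 (adjusted p = 0.0542) and Trex1 (0.07) were not called in the p38α/γ KO, and Tlr7 was (0.045).

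A wider list held 44 other interferon-stimulated genes that were tested. In p38α KO muscle 10 of them rose and none fell, with a median difference of 0.327, and in p38α/γ KO muscle 5 rose and 2 fell, with a median of 0.23. The 10 were 22.7% of the list, beside 7.32% of all genes, whereas the 5 were 11.4% of it, beside 11.2% of all genes, and the 7 called in p38α/γ KO muscle were 15.9%, beside 25.6% of all genes. At an unadjusted p below 0.05, 19 (43.2%) were higher and 1 lower in p38α KO muscle, beside 15.9% of all genes that were higher. In p38α/γ KO muscle 15 (34.1%) were higher and 4 lower by that rule, beside 20.1% of all genes that were higher. Differences above 0 numbered 39 and 34 of the 44, beside 51.0% and 51.5% of all genes. Ifi35, an interferon-induced leucine zipper protein, had 21.9, 17.6 and 15.2 in p38α KO muscle, 14.6, 17.5 and 17.8 in p38α/γ KO muscle and 9.46, 10.1 and 9.39 in control muscle. It rose in both knockouts, by 0.84 (adjusted p = 0.00495) and 0.72 (adjusted p = 0.00806), and kept both calls whichever library was left out. Rsad2, which encodes the antiviral enzyme viperin, had 17.5, 15.3 and 15.5 in p38α KO muscle, 13.1, 12.2 and 21.5 in p38α/γ KO muscle and 9.5, 8.47 and 7.26 in control muscle. Rsad2 rose by 0.87 (adjusted p = 0.0156) in the p38α KO, lost without control 3, and by 0.78 (adjusted p = 0.0187) in the p38α/γ KO, lost without control 2 or control 3.

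Ifitm3, which blocks viral entry, and Slfn2, a member of the Schlafen family, also rose in both knockouts. The differences of Ifitm3 were 0.64 (adjusted p = 0.0202) in the p38α KO and 0.51 (adjusted p = 0.0357) in the p38α/γ KO, and those of Slfn2 were 0.63 (adjusted p = 0.0357) and 0.53 (adjusted p = 0.0485). Both genes lost the p38α/γ KO call in 6 of the 9 fits with 1 library left out, Ifitm3 without p38α KO 2, without p38α/γ KO 2 or 3 or any 1 control library, and Slfn2 without p38α KO 2, any 1 p38α/γ KO library, control 1 or control 3. With the sample number as a block neither passed (adjusted p = 0.0698 for Ifitm3 and 0.0623 for Slfn2), nor did the fall of Tdrd7 (0.0597). Ifit3b, Parp12, Tor3a, Uba7, Xaf1 and Cmpk2 made up the rest of the 10 genes called in p38α KO muscle, with differences from 0.45 for Parp12 to 1.33 for Ifit3b. Uba7 encodes the activating enzyme for ISG15, and its difference was 0.50 (adjusted p = 0.0322). Shisa5 completed the 5 genes that rose in p38α/γ KO muscle, with a call lost without p38α/γ KO 2 or 3 and without control 1 or 3 (adjusted p up to 0.0924), and Trim34a (-0.63, adjusted p = 0.022) and Tdrd7 (-0.37, adjusted p = 0.0283) fell there. Of the 10 genes called in p38α KO muscle Ifi35 and Ifit3b kept the call whichever library was left out, and each of the other 8 lost it without control 3. Without p38α KO 1 the count of genes that rose was 5 in p38α KO muscle and 14 in p38α/γ KO muscle, beside 7.16% and 19.4% of all genes. For the p38α KO it was 17 when p38α KO 3 was left out, 4 for p38α KO 2 or control 2, 3 for control 1 and 2 for control 3. Of all genes 11.4%, 3.84%, 2.99%, 2.22% and 2.18% were higher in these fits, in the same order. For the p38α/γ KO it was 11 when p38α KO 3 was left out, 3 for control 2, 2 for p38α/γ KO 2 or 3 and for control 1, and 1 for control 3. Of all genes 14.7%, 5.45%, 2.58%, 3.37%, 3.4% and 3.58% were higher in these fits, in the same order. Trim34a lost its call without p38α/γ KO 2 or any 1 control library, as did Tdrd7, which also lost it without p38α/γ KO 3. None of the 44 genes passed limma in the direct comparison of the knockouts. At an unadjusted p below 0.05, 4 (9.09%) were higher in p38α KO than in p38α/γ KO muscle, beside 5.65% of all genes, and none was lower. Of the 44 differences 34 were above 0, beside 48.7% of all genes.

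**Figure D4:**
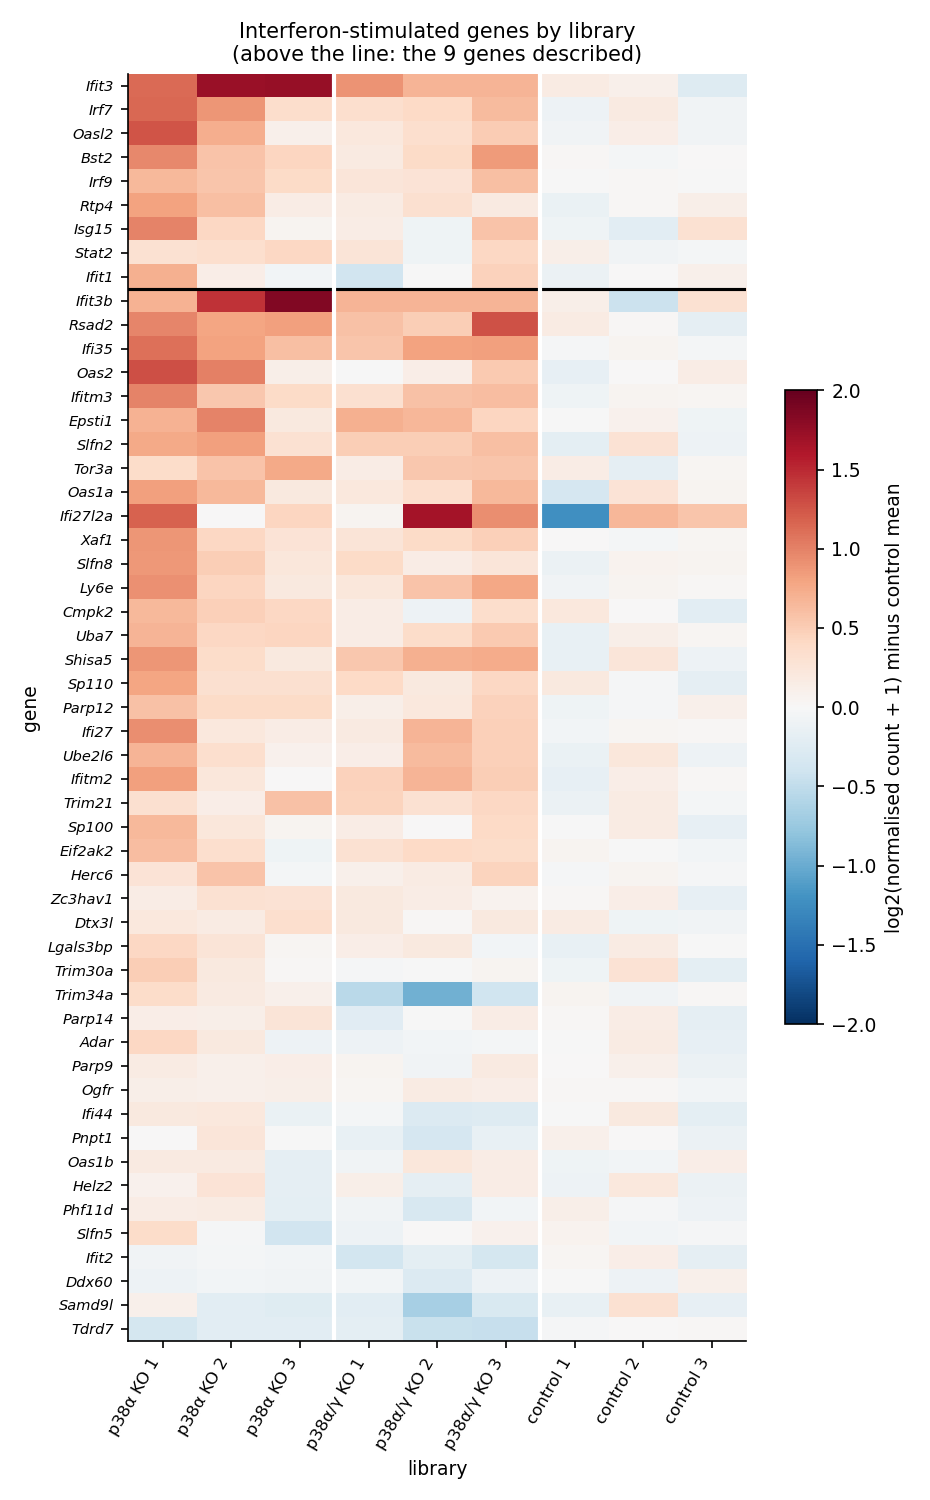
Difference of log2(normalised count + 1) from the control mean (colour scale) for the 9 genes, above the line, and the 44 other interferon-stimulated genes tested, below it, in each library (columns). Ifit3 and Ifit3b are darkest in p38α KO 2 and p38α KO 3, whereas Irf7, Oasl2, Isg15 and Rtp4 are darkest in p38α KO 1.

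Of 9 negative regulators of interferon signalling, Usp18, the protease that removes ISG15 and restrains the type I receptor, rose in p38α KO muscle, and none changed in p38α/γ KO muscle by limma, where 1 had an unadjusted p below 0.05. Usp18 alone was 11.1% of the list, beside 7.32% of all genes that were higher in p38α KO muscle. At an unadjusted p below 0.05, 4 of the 9 (44.4%) were higher in p38α KO muscle, beside 15.9% of all genes. In p38α/γ KO muscle 11.1% of the list was higher by that rule, beside 20.1% of all genes. With the sample number as a block 1 of the 9 was higher in each knockout, the phosphatase gene Ptpn6, named after its values were seen. Its adjusted p with the block was 0.0388 in p38α KO muscle and 0.0459 in p38α/γ KO muscle. Usp18 was not called in p38α KO muscle with the block (adjusted p = 0.073). Usp18 had 4.12, 3.17 and 3.04 in p38α KO muscle, 2.12, 1.9 and 2.97 in p38α/γ KO muscle and 2.01, 2.31 and 1.45 in control muscle. All p38α KO libraries lay above the other groups. The p38α KO difference was 0.61 (adjusted p = 0.0383), lost without p38α KO 1 or 2, p38α/γ KO 1 or any 1 control library, and the p38α/γ KO difference was 0.19 (adjusted p = 0.433).

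Markers of macrophages, which also express interferon-stimulated genes, were higher in both knockouts. Of 20 such markers 15 rose in p38α KO muscle, with a median difference of 1.03, and 18 rose in p38α/γ KO muscle, with a median of 1.16, and none fell. By the same rule 7.32% and 11.2% of all genes were higher in these comparisons. The summed normalised count of the 20 markers was 456.9, 347.5 and 195.8 in p38α KO muscle, 345.2, 441.7 and 225.4 in p38α/γ KO muscle and 111.7, 141.1 and 107.1 in control muscle, and no marker lacked reads in every library. In bulk RNA more cells of a type and more RNA per cell cannot be told apart, and the part of macrophages in the levels of the 9 genes was not tested. Without p38α KO 1 the counts were 10 and 19 of 20, beside 7.16% and 19.4% of all genes. The p38α KO count was 6 without control 2, 4 without p38α KO 2 and 1 without control 1 or 3. In these fits 2.99%, 3.84%, 2.22% and 2.18% of all genes were higher, in the same order. The p38α/γ KO count was 4 without p38α/γ KO 2 and 9 without control 1 or control 3, beside 2.58%, 3.4% and 3.58% of all genes.

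The sum of the 9 genes was 83.0, 76.2 and 66.7 in p38α KO muscle, 52.3, 52.1 and 66.1 in p38α/γ KO muscle and 40.9, 41.5 and 40.1 in control muscle. Without Ifit3 the sum was 68.6, 54.1 and 44.3 in p38α KO muscle, 40.3, 41.9 and 55.9 in p38α/γ KO muscle and 34.1, 35.0 and 35.2 in control muscle. The p38α KO libraries ranked alike by the macrophage sum and by either sum of the 9 genes. The p38α/γ KO libraries did not, since library 3 was the lowest by the macrophage sum and the highest by the sum of the 9 genes.

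**Figure D5:**
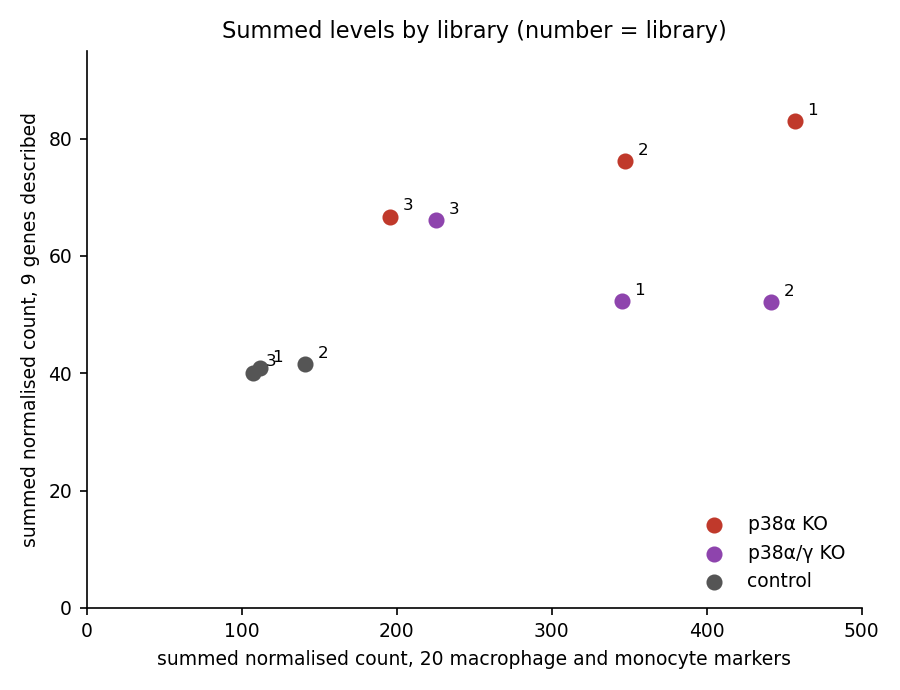
Summed normalised count of the 9 genes (vertical axis) against that of 20 macrophage and monocyte markers (horizontal axis), 1 point a library, coloured by group and numbered. Both knockouts lie to the right of and above control, and p38α/γ KO 3 combines the lowest macrophage sum of its group with the highest sum of the 9 genes.

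Markers of other cells that could carry these genes were listed too. None of 18 lymphocyte markers had a row, and 2 of 9 neutrophil markers did, neither of which passed limma in either knockout (1 of them had an unadjusted p below 0.05 in each). Of 9 markers of plasmacytoid dendritic cells, a main source of type I interferon, 3 had a row. Of these Tcf4 (0.64, adjusted p = 0.0163) and Runx2 (0.52, adjusted p = 0.0348) rose in p38α/γ KO muscle, with and without p38α KO 1, and both are also expressed by other cells. Both calls were lost without p38α/γ KO 2 or 3 or any 1 control library, and that of Runx2 also without p38α KO 2 or p38α/γ KO 1. With all libraries the calls were 66.7% of the 3 markers, beside 11.2% of all genes. In p38α KO muscle none of the 3 was called (adjusted p = 0.167 for Tcf4 and 0.0574 for Runx2), and 2 of the 3 differences were above 0. Runx2 passed there without p38α/γ KO 2 (adjusted p = 0.0478). Of 14 markers of fibro-adipogenic progenitors, 1 rose in p38α KO muscle and 8 in p38α/γ KO muscle, with 1 and 13 in the fits without p38α KO 1. With all libraries these were 7.14% and 57.1% of the list, beside 7.32% and 11.2% of all genes. In the fits without p38α KO 1, 7.16% and 19.4% of all genes were higher. The p38α/γ KO count was 0 without p38α/γ KO 2 or 3 and without control 1 or 3, beside 2.58% to 3.58% of all genes. The p38α KO count was 7 without p38α KO 3, beside 11.4% of all genes, and 0 without control 1 or 3, beside 2.22% and 2.18%. The summed normalised count of these 14 markers was 3928.0, 2494.0 and 2251.0 in p38α KO muscle, 3146.0, 4397.0 and 3308.0 in p38α/γ KO muscle and 2077.0, 2698.0 and 2079.0 in control muscle. That of 14 endothelial markers was 671.5, 625.1 and 592.5 in p38α KO muscle, 617.6, 569.7 and 621.6 in p38α/γ KO muscle and 645.4, 661.2 and 634.3 in control muscle. That of 14 fast fibre markers lay between 126900.0 and 186200.0 in p38α KO muscle, 156500.0 and 163200.0 in p38α/γ KO muscle and 208300.0 and 226800.0 in control muscle. The part of these cells in the levels of the 9 genes was not tested.

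The genes whose pattern over the 9 libraries was most like the mean standardised level of the 9 genes included Ccdc173, Pepd, Gm42669, Iqsec2 and Tlr2, with Pearson correlations from 0.952 to 0.96. The correlation describes libraries that share group, depth and scaling, and carries no test. Pepd, which encodes the dipeptidase prolidase, had 33.4, 29.9 and 26.4 in p38α KO muscle, 26.1, 27.3 and 27.5 in p38α/γ KO muscle and 23.8, 24.0 and 23.7 in control muscle. Tlr2, a receptor for bacterial lipoproteins, had 3.57, 2.45 and 2.05 in p38α KO muscle, 1.94, 1.94 and 2.23 in p38α/γ KO muscle and 1.07, 1.48 and 1.19 in control muscle. In both, p38α KO 1 was the highest and p38α KO 3 the lowest library of its group, as for 7 of the 9 genes. The mean standardised level itself fell from 1.53 in p38α KO 1 to 0.106 in p38α KO 3. Both genes were picked for likeness to it, so their order follows from that choice and is no separate result.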

How the data were processed

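Polyadenylated RNA from 100 ng per sample (RIN above 8) was sequenced as 51-base single reads with a stranded kit, per the labels' protocols. Tools named in the submitters' processing notes are RSEM 1.3.1, cutadapt, CASAVA 1.8 and limma, with the genome GRCm38. The deposited table holds a signal value per gene and library, which the authors name normalised counts; how they were scaled, filtered and assigned to a strand is not given in the sources used here. Every value was an odd multiple of the lowest value of its library, within 0.001 reads, the spacing of whole numbers to which 0.5 was added before scaling. Depth was inferred from it, and no count model was used.

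Of the 13179 genes, those with 3 or more libraries at 1 or above were kept. Their log2(value + 1) was tested in R 4.3.3 with limma 3.58.1 (all 9 libraries, empirical Bayes with a trend, Benjamini-Hochberg adjusted p below 0.05 over all genes tested), after tests on simulated data. The genes described and all lists were chosen with earlier results of these data known. Named genes were the 9 genes, the tested receptor genes, up to 6 called genes of lowest p from each other list (14 for the other interferon-stimulated genes), the targeted genes and 6 genes of most similar pattern, of which some results are not reported here; neighbouring and overlapping genes (Ifit2, Rnf31, Phrf1, Gm45338) were added. Same-numbered p38α/γ KO and control libraries deviated together across genes (r = 0.111, 0.124 and 0.148), and the labels name no pairs. Unlike-numbered libraries of other comparisons reached 0.351 (p38α KO 2 with p38α/γ KO 1), so these values do not establish pairs. Elsewhere some same-numbered libraries deviated in opposite directions, with -0.331 for number 1 of both knockouts. The block was fitted to all 9 libraries and is given as an alternative setting, not as a test of pairs. Alternatives changed the filter, pseudocount, scaling, spread estimate, libraries and block. GENCODE M21 held 13166 of the 13179 identifiers.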

Additional observations from a re-analysis of the deposited data

How the results depend on the processing

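Over 27 differences (9 genes in 3 comparisons) and 21 alternative settings, 531 of 534 values kept their direction, and 29 lost and 10 gained a call; the 3 that turned were all of Ifit1 in the p38α/γ KO against control (-0.0942 with quantile normalisation, -0.193 without p38α/γ KO 3, -0.0311 without control 1; leaving out 1 library gave -0.193 to 0.231). The cause of these changes was not tested. Leaving out 1 library moved the genes called to between 837 and 3257 in the p38α KO comparison, 859 and 5388 in the p38α/γ KO comparison and 23 and 1872 in the direct comparison, the last without p38α KO 1. The called genes of the 9 ranged from 1 to 6, 0 to 4 and 0 to 1 in these comparisons.

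Fits of the 6 libraries of a comparison alone called 1364, 5536 and 22 genes, and 5 of the 9 genes in the p38α/γ KO. In that comparison 1 of the 9 was called with a pseudocount of 5, with quantile normalisation, with the replicate block (Irf9 at an adjusted p of 0.0883) and with mean-variance weights, which were chosen after seeing the data, as was the sum of Ifit3 and Ifit3b. In the other comparisons some same-numbered libraries deviated in opposite directions. There the block left Bst2 at an adjusted p of 0.0699 in the p38α KO and called 32 genes in the direct comparison. A filter of at least 5 left 6 of the 9 genes tested. The number of libraries and the low read numbers, 30 to 111 for Isg15, limit what could be detected.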
